A study of Mus musculus with 12 samples.

Results

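The contrast described here sets the response of MLE12 cells to an shRNA against the long noncoding RNA NANCI beside their response to an shRNA against the RNA named LL34. MLE12 cells come from distal epithelium of the mouse lung and carry the SV40 large T antigen. The contrast uses all 12 arrays of the series, in 4 groups of 3: NANCI shRNA with its scrambled shRNA control, and LL34 shRNA with a scrambled control of its own. All 4 groups shared the line, the pLKO.1 lentiviral vector packaged in human embryonic kidney cells (HEK-293T), infection for 12 h at 60% confluency, 65 h of subculture and 100 ng of RNA per array. The labels call the arrays of a group biological replicates without saying whether infections were separate, and p-values therefore cover just the variation among these arrays, which may be technical. They do not give the number of shRNA constructs per target.

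For each of 22180 named genes, the NANCI response is the mean log2 signal on the 3 NANCI shRNA arrays minus that on their 3 scrambled arrays. The LL34 response is formed in the same way within the LL34 set, and the difference is the NANCI response minus the LL34 response. A gene was called where the limma p, adjusted by the Benjamini-Hochberg method over 41345 probe sets, was under 0.05. A gene is opposite where both responses were called with opposite signs, shared where both were called with 1 sign, and NANCI-only or LL34-only where 1 response and the difference were called and the other response was not. NANCI lies beside Nkx2-1, the transcription factor that directs lung epithelial identity. The gene table gives Nanci as a synonym of Sfta3-ps (chr12:56490428-56529420, a lncRNA, GRCm38.p6), next to Nkx2-1 (chr12:56531935-56536908). No table entry is named LL34, so the knockdown of that RNA was not analysed here.

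Several groups of genes below belong to stress programs. ATF4 is a transcription factor made when cells lack amino acids or when the endoplasmic reticulum (ER) is overloaded. It turns on amino acid transporters, enzymes of serine and asparagine synthesis, mitochondrial folate enzymes and tRNA synthetases. NRF2 turns on glutathione and quinone-detoxifying enzymes after oxidative or electrophilic stress, SREBP2 turns on cholesterol synthesis when sterols are low, and p53 turns on growth arrest and repair genes after DNA or nucleolar damage.

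The targeted transcript fell much further in its own set. Sfta3-ps read 8.75, 9.19 and 9.01 on the NANCI shRNA arrays and 12.05, 11.83 and 11.81 on their scrambled arrays. On the LL34 shRNA arrays it read 11.28, 11.54 and 11.19, and on their scrambled arrays 11.99, 12.09 and 11.95. The shRNA arrays lay below all scrambled arrays in each set. The responses were −2.91 and −0.67, a difference of −2.24 (SE 0.171, limma adjusted p = 7.43e-06). Nkx2-1 read 10.18, 10.18 and 10.04 with NANCI shRNA against 11.18, 11.12 and 11.10, and 10.39, 10.38 and 10.39 with LL34 shRNA against 10.73, 10.74 and 10.49. It was lower with shRNA in both sets, and the difference was −0.73 (SE 0.105, limma adjusted p = 0.000529).

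The difference was called for 5409 of 22180 named genes (24.4%). It was higher, meaning that the NANCI response was the greater, for 2671 (12%) and lower for 2738 (12.3%). It had a size of at least 1 for 901 called genes (4.06%) and of at least 2 for 74 (0.334%). The NANCI response was called for 5938 genes (26.8%) and the LL34 response for 4440 (20%). Both were called for 2397 genes, of which 1225 were opposite and 1172 moved the same way. Across the 22180 genes, which are not independent replicates, the responses had a Pearson correlation of −0.0089 and a Spearman correlation of −0.0012. At the edge of the threshold lay Hotair (0.37, adjusted p = 0.0499938), the last gene inside, and Mir339 (−0.54, adjusted p = 0.0500291), the first outside.

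The opposite genes comprised 644 with a lower NANCI and a higher LL34 response (2.9% of named genes) and 581 with the reverse (2.62%). Shared genes numbered 459 higher (2.07%) and 713 lower (3.21%). A threshold passed in 1 set alone did not settle that a gene was particular to it. Of 3541 genes called only for NANCI, the difference was called for 2338, the NANCI-only class (1200 higher, 5.41%, and 1138 lower, 5.13%). Of 2043 called only for LL34 it was called for 1259, the LL34-only class (621 higher, 2.8%, and 638 lower, 2.88%). Another 270 genes had a called difference with neither response called. The count of shared higher genes was 299 without LL34_shRNA replicate 1 and 300 without LL34_shRNA replicate 3. Opposite genes with NANCI lower numbered 451 without LL34_shRNA replicate 1.

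**Figure D1:**
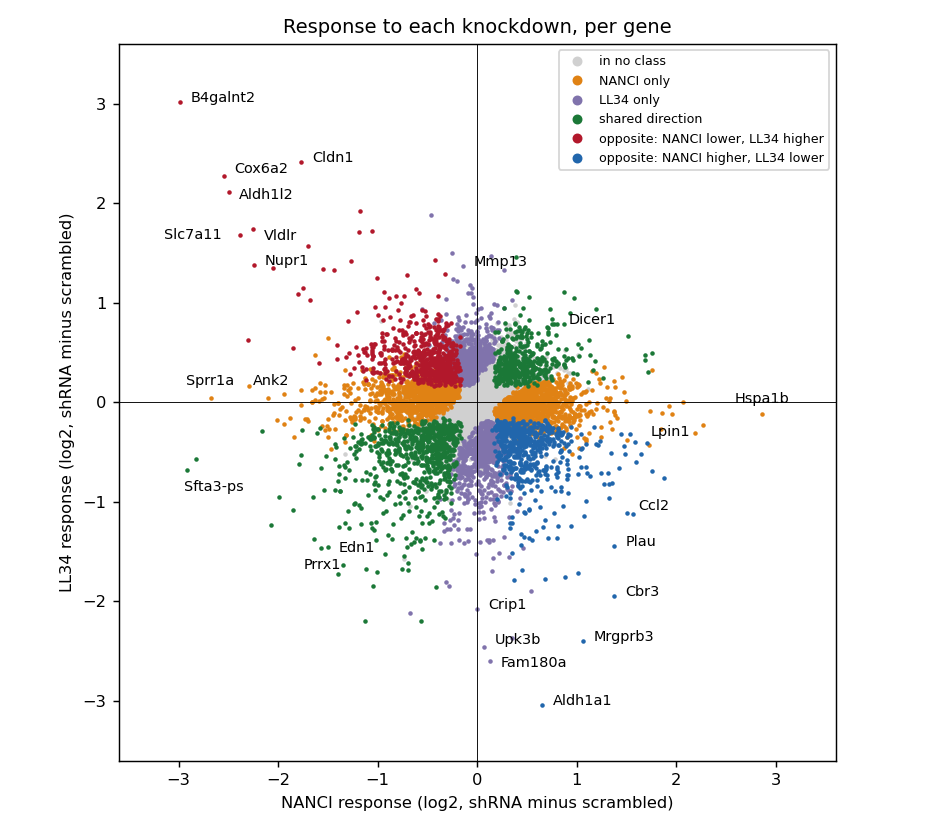
Each point is 1 of 22180 named genes, with the NANCI response on the horizontal axis and the LL34 response on the vertical axis, both in log2 units of shRNA minus scrambled. Red and blue points are the 644 and 581 opposite genes, green points the shared genes, orange and purple points the NANCI-only and LL34-only genes. B4galnt2 lies alone in the upper left corner at −2.99 and 3.02.

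The strongest opposite gene was B4galnt2 (chr11:95863559-95914960), which encodes a glycosyltransferase that adds N-acetylgalactosamine to sugar chains. It read 8.32, 8.24 and 8.40 with NANCI shRNA and 11.03, 11.42 and 11.49 with its scrambled control. In the LL34 set it read 11.08, 10.98 and 10.93 with shRNA and 8.20, 7.96 and 7.77 with scrambled. The low groups were thus the NANCI shRNA and the LL34 scrambled arrays, and within each set the groups did not overlap. The responses of −2.99 and 3.02 gave a difference of −6.01 (SE 0.182, limma adjusted p = 2.65e-08). Cox6a2, a muscle-type subunit of cytochrome c oxidase, measured −2.55 and 2.27 (difference −4.82, SE 0.139). Cldn1, a claudin that seals tight junctions, read 6.66, 6.70 and 6.36 with NANCI shRNA against 8.39, 8.31 and 8.33. With LL34 shRNA it read 9.22, 9.02 and 9.10 against 6.58, 6.75 and 6.77. Its difference was −4.18 (SE 0.135), and the high groups were again the NANCI scrambled and LL34 shRNA arrays. Tc2n (−1.70 and 1.57) and Myct1 (−2.05 and 1.35) followed with differences of −3.28 and −3.39. The limma adjusted p was at most 1.07e-05 for the 10 opposite genes chosen in this direction. They also include the ATF4 targets Aldh1l2, Vldlr, Slc7a11, Nupr1 and Pck2, of which Pck2 is not in the ATF4 list counted below.

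Targets of ATF4 formed a large block of genes with a lower NANCI and a higher LL34 response. Of 35 measured members, the difference was lower in 27 and higher in 2, against 12.3% and 12% of all named genes. The median difference was −1.07 (all named genes 0.03), from a median of −0.48 after NANCI and 0.79 after LL34 shRNA. The NANCI response alone was lower in 22 members (all named genes 13.6%) and the LL34 response higher in 27 (9.77%). By class, 21 members were opposite with NANCI lower, 1 was opposite with NANCI higher and 3 were shared higher. A further 1 was NANCI-only, 4 were LL34-only and the rest were in no class. Over all named genes, 2.9% were opposite with NANCI lower, 2.62% opposite with NANCI higher and 2.07% shared higher. NANCI-only higher and lower genes made up 5.41% and 5.13%, and LL34-only ones 2.8% and 2.88%. Atf4 itself measured −0.24 and 0.58 (difference −0.82, SE 0.0792, limma adjusted p = 3.59e-05).

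Among the transporters, Slc7a11, the cystine and glutamate exchanger, measured −2.39 and 1.68. Its probe set held 1 value, 11.42, on all 3 LL34 shRNA arrays, so its SE may be too small, and its dimmer probe set gave a difference of −1.22 (SE 0.15). The cationic amino acid transporter gene Slc7a1 measured −0.88 and 1.05. Among the enzymes, Psph, the last step of serine synthesis, read 8.68, 8.77 and 8.63 with NANCI shRNA and 10.15, 10.10 and 10.15 with scrambled. It read 10.03, 10.11 and 10.04 with LL34 shRNA and 8.69, 8.76 and 8.73 with scrambled. Low and high groups changed places between the sets with no overlap within a set, and the difference was −2.78 (SE 0.0774, limma adjusted p = 1.82e-08). Aldh1l2, a mitochondrial folate enzyme, measured −2.50 and 2.11 (difference −4.61), and Asns, asparagine synthetase, −0.49 and 0.79 (−1.28). Pck2, mitochondrial PEP carboxykinase and not a member of the list, measured −1.55 and 1.34 (−2.89).

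Among the regulators, Trib3, a pseudokinase that restrains ATF4, measured −1.05 and 1.73 (difference −2.78, SE 0.0967). Chac1, which degrades glutathione, measured −1.18 and 1.71 (−2.89), and Vldlr, a lipoprotein receptor, −2.25 and 1.74 (−3.99, SE 0.107). The stress protein gene Nupr1 read 8.18, 8.51 and 8.14 with NANCI shRNA against 10.63, 10.35 and 10.59. With LL34 shRNA it read 10.68, 10.67 and 10.60 against 9.37, 9.37 and 9.08. The difference was −3.63 (SE 0.165, limma adjusted p = 4.15e-07), with no overlap in either set. Some members departed from the block: Ddit4, an mTOR inhibitor that hypoxia and p53 also induce, measured 1.23 and −0.39, and Sesn2, a leucine sensor, rose in both sets (0.73 and 0.94).

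RefSeq promoters (250 bases before to 50 after a start, GRCm38.p6) were read for the element that binds ATF4 with C/EBP partners, TGATGNAA on either strand. It occurred in 8 of 33 promoters of the ATF4 list (24.2%), against 3.97% of all 32851 promoters and 3.39% of those of named genes. Over whole classes it was in 5.40% of 667 promoters of opposite genes with NANCI lower and in 1.28% of 623 with NANCI higher. These shares describe letters in a window and carry no test. The stretches around the element in 5 members with large differences follow, 5′ to 3′ on the gene's strand, with the element in capitals. Slc7a11 holds it on each strand. Atf3, a stress-induced factor of the list chosen after its values were seen, holds the element too, and its difference was higher (0.35, limma adjusted p = 0.0216). That call was lost without NANCI_shRNA replicate 1 (adjusted p = 0.0527), NANCI_shRNA replicate 3 (0.0515), NANCI_control replicate 1 (0.0545) or LL34_shRNA replicate 2 (0.0575).
Slc7a11, chr3:50443627-50443705: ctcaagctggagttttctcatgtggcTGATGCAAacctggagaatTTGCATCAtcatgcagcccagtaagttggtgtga
Vldlr, chr19:27216794-27216853: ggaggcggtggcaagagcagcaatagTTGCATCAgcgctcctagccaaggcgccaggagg
Nupr1, chr7:126625547-126625606: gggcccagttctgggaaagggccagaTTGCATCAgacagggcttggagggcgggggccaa
Chac1, chr2:119351023-119351082: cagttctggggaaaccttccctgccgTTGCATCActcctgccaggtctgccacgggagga
Asns, chr6:7693210-7693258: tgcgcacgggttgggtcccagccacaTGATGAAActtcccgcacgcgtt

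Cytosolic aminoacyl-tRNA synthetases, which charge tRNAs with amino acids, had the same signs in most called cases. Of 17 measured, the difference was lower in 10 and higher in 2 (median −0.70), and 9 were opposite with NANCI lower, against 12.3%, 12% and 2.9% of all named genes. Lars, Iars and Eprs, for leucine, isoleucine, and glutamate with proline, measured −1.06 and 0.49, −0.98 and 0.50, and −0.86 and 0.54. Mars1 and Yars, for methionine and tyrosine, measured −0.67 and 0.64, and −0.37 and 0.73. The limma adjusted p of the difference was at most 1.05e-05 for these 5 genes. The element TGATGNAA was in 4 of 11 of their promoters.

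For ER chaperones and the other branches of the unfolded protein response, the shift was small. Of 26 measured, the difference was lower in 9 and higher in 2 (median −0.19), against 12.3% and 12% of all named genes. Opposite members with NANCI lower numbered 4 (all named genes 2.9%). Herpud1, an ER degradation factor, measured −0.78 and 0.73 (difference −1.52, SE 0.07), and Atf6, an ER stress sensor, −0.52 and 0.37. The chaperone genes Hyou1 and Dnajb9 measured −0.54 and 0.31, and −0.47 and 0.41. Hspa5, the central ER chaperone and a gene chosen after its values were seen, measured 0.23 and 0.14, and its difference of 0.09 was not called.

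**Figure D2:**
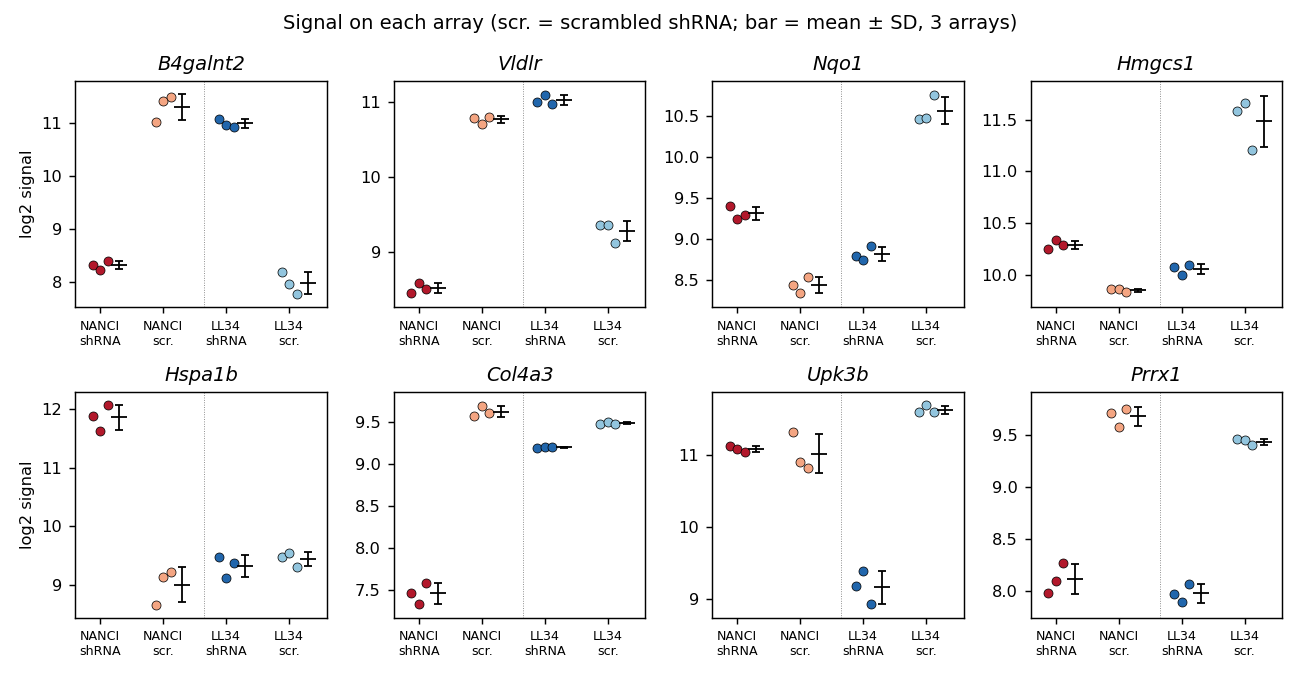
Log2 signal of 8 genes on each of the 12 arrays, grouped as NANCI shRNA, NANCI scrambled, LL34 shRNA and LL34 scrambled, with mean and SD bars over 3 arrays. B4galnt2 and Vldlr are low where Nqo1 and Hmgcs1 are high within each set. Hspa1b and Col4a3 stand apart in the NANCI shRNA arrays, Upk3b in the LL34 shRNA arrays, and Prrx1 is low in both shRNA groups.

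NRF2 targets moved the other way. Of 28 measured antioxidant and detoxification genes, the difference was higher in 23 and lower in 1 (median 0.87), against 12% and 12.3% of all named genes. Their median was 0.45 after NANCI and −0.52 after LL34 shRNA, and 15 were opposite with NANCI higher (all named genes 2.62%). The member that was lower is Slc7a11, which ATF4 also controls. Nqo1, a quinone reductase, read 9.40, 9.25 and 9.29 with NANCI shRNA and 8.43, 8.34 and 8.54 with scrambled. It read 8.79, 8.74 and 8.91 with LL34 shRNA and 10.47, 10.48 and 10.76 with scrambled. Within each set the groups did not overlap, and the LL34 scrambled arrays were the highest of the 12. The difference was 2.63 (SE 0.128, limma adjusted p = 5.79e-07). Cbr3, a carbonyl reductase, measured 1.38 and −1.95 (difference 3.33, SE 0.19), and Osgin1 and the glutathione transferase gene Gsta4 1.32 and −0.96, and 0.94 and −1.24. Hmox1, heme oxygenase, measured 1.48 and −0.52, Pgd, an NADPH-producing enzyme, 0.78 and −0.89, and Txnrd1, thioredoxin reductase, 0.54 and −0.63. Gclm, a subunit of the enzyme that starts glutathione synthesis, measured 1.17 and −0.24.

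The antioxidant response element that NRF2 binds, TGACNNNGC on either strand, was in 8 of 31 promoters of the list (25.8%), against 12.4% of all promoters. It was in 15.9% of the promoters of opposite genes with NANCI higher, in 16.2% of those with NANCI lower and in 27.3% of ATF4 list promoters, a like share in both directions. Its reverse complement lies in Txnrd1 and Gclm, shown on the gene's strand with the element in capitals.
Txnrd1, chr10:82859088-82859148: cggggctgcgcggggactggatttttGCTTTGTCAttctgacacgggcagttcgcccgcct
Gclm, chr3:122245397-122245457: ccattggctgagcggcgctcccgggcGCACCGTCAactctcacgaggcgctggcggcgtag

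Cholesterol genes were higher in the difference in 14 of 21 cases and lower in 1 (median 0.69), against 12% and 12.3% of all named genes. Here the larger share came from the LL34 set: the median was 0.14 after NANCI and −0.54 after LL34 shRNA. Of the members, 6 were opposite with NANCI higher (all named genes 2.62%). Another 7 were LL34-only, against 2.8% LL34-only higher and 2.88% LL34-only lower of all named genes. Hmgcs1, an early enzyme of sterol synthesis, read 10.25, 10.33 and 10.29 with NANCI shRNA against 9.86, 9.86 and 9.83. With LL34 shRNA it read 10.07, 10.00 and 10.09 against 11.59, 11.66 and 11.21. The LL34 scrambled arrays stood over a full log2 unit above their shRNA arrays, and the NANCI shRNA arrays were a little above their control. The difference was 1.87 (SE 0.14, limma adjusted p = 6.62e-06). Cyp51, Msmo1 and Sqle, later enzymes of the path, measured 0.68 and −1.77, 0.68 and −1.18, and 0.35 and −1.21. The sterol element TCACNCCAC was found in 1 of 23 promoters of the list, that of Hmgcs1, and in 1.24% of all promoters.
Hmgcs1, chr13:119690188-119690248: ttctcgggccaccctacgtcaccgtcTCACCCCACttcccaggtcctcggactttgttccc

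Mitotic genes were higher in the difference in 15 of 30 cases and lower in 2 (median 0.37), and 11 were opposite with NANCI higher. Over all named genes these shares were 12%, 12.3% and 2.62%, which also serve for the counts that follow. Bub1b, a spindle checkpoint kinase, measured 0.77 and −0.42, Aurkb, aurora kinase B, 0.82 and −0.29, Cenpa, the centromeric histone, 0.65 and −0.46, and Cdk1, the mitotic kinase, 0.51 and −0.41. Of 32 replication genes, the difference was higher in 7 and lower in 11. Mcm7, part of the replicative helicase, measured 0.31 and −0.53, while Rfc5, part of the clamp loader, measured −0.61 and 0.30. Glycolysis and hypoxia genes were higher in 13 of 27 cases and lower in 2 (median 0.26). Tpi1, a glycolytic enzyme, measured 0.68 and −0.69, and Slc2a1, the glucose transporter GLUT1, 0.91 and −0.17. On the dimmer Slc2a1 probe set the difference of 0.21 was not called (limma adjusted p = 0.164).

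NF-kB inflammatory genes were higher in the difference in 12 of 27 cases and lower in 1, against 12% and 12.3% of all named genes. Of these 27, 7 were opposite with NANCI higher (all named genes 2.62%). The median of 0.21 was 0.137 without LL34_control replicate 3 and 0.486 when probe sets below the median signal were left out. Ccl2, a monocyte chemokine, read 9.17, 9.13 and 9.34 with NANCI shRNA against 7.81, 7.83 and 7.47. With LL34 shRNA it read 6.66, 6.89 and 6.57 against 8.04, 7.72 and 7.71. The NANCI shRNA arrays were the highest and the LL34 shRNA arrays the lowest of the 12, with both scrambled groups between them. The difference was 2.62 (SE 0.177, limma adjusted p = 3.72e-06). Tnfaip3, a feedback inhibitor of NF-kB, measured 1.27 and −0.82, Nfkbia, the inhibitor IkB-alpha, 0.64 and −0.35, and the subunit genes Nfkb2 and Rela 0.48 and −0.67, and 0.25 and −0.44. The list's best known cytokines Il6, Tnf and Il1b, named after their values were seen, had differences of 0.04, 0.03 and 0.04, none called.

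Other genes with a higher NANCI and a lower LL34 response had no common list. Plau, the urokinase protease, measured 1.38 and −1.44 (difference 2.82, SE 0.173), Ctxn1 1.57 and −1.13 (2.69, SE 0.0898), and Mrgprb3, a G protein-coupled receptor, 1.06 and −2.40 (3.46, SE 0.192). E2f5, a cell cycle transcription factor, measured 1.02 and −1.71, Olr1, a receptor for oxidised lipoprotein, 1.07 and −1.15, and Fah, the last enzyme of tyrosine breakdown, 1.09 and −0.99. The limma adjusted p was at most 1.53e-05 for the 10 genes chosen in this direction, which include Ccl2, Cbr3, Osgin1 and Gsta4 above.

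Retinoic acid genes held the deepest LL34 fall among the opposite genes. Aldh1a1, which makes retinoic acid, read 10.68, 10.45 and 10.83 with NANCI shRNA against 10.16, 9.91 and 9.95. With LL34 shRNA it read 8.26, 8.41 and 8.11 against 11.18, 11.31 and 11.43. The responses were 0.65 and −3.04 (difference 3.69, SE 0.163, limma adjusted p = 3.81e-07), with no overlap in either set. The receptor genes Rarg and Rara measured 0.49 and −0.62, and 0.64 and −0.28, and Cyp26b1, which degrades retinoic acid, 0.33 and −0.96. Over the list, the difference was higher in 5 of 24 and lower in 2, a share of 29.2% called, close to the 24.4% of all named genes.

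**Figure D3:**
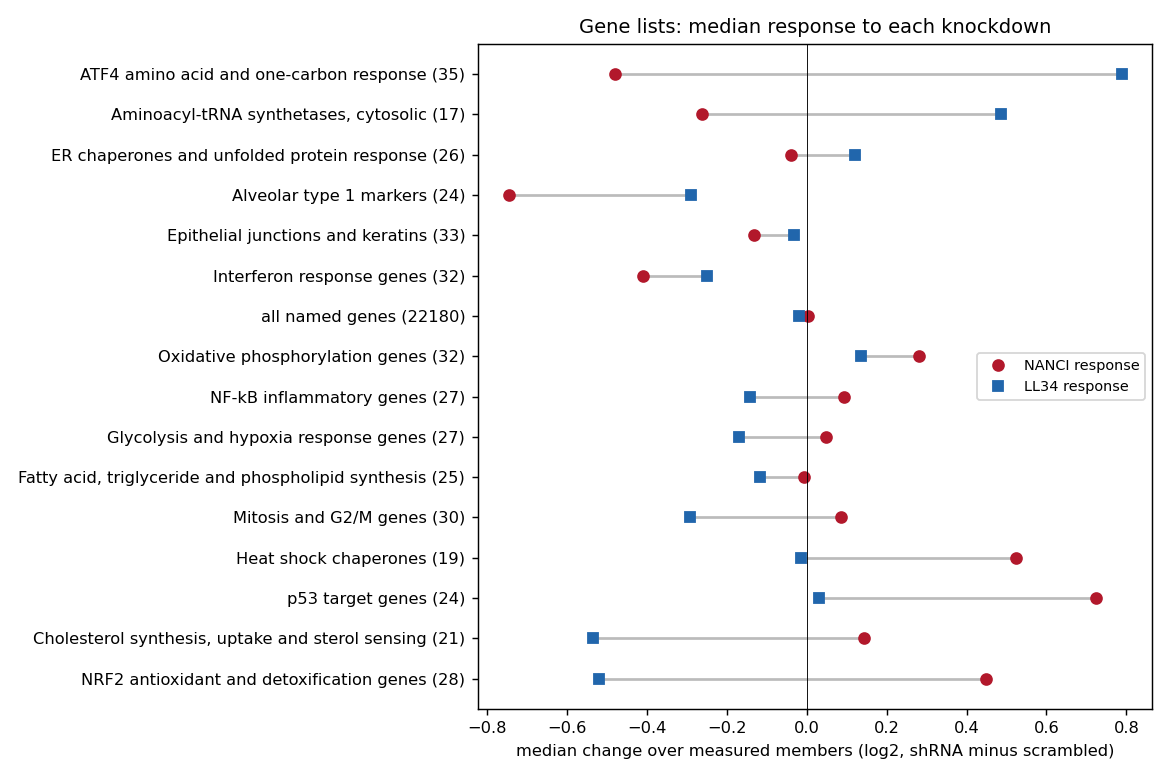
Median response over the measured members of 15 gene lists and over all named genes, in log2 units of shRNA minus scrambled; circles are the NANCI response, squares the LL34 response, and the number of members is in brackets. ATF4 targets lie at −0.48 and 0.79 and NRF2 targets at 0.45 and −0.52, in reverse order. p53 targets lie at 0.72 and 0.03 and heat shock genes at 0.52 and −0.01, so that the larger median is that of NANCI.

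Targets of p53 were called mostly for the NANCI shRNA. Of 24 measured, the difference was higher in 16 and lower in 1 (median 0.61), against 12% and 12.3% of all named genes. Of the members, 12 were NANCI-only and 4 shared higher, against 5.41% NANCI-only higher, 5.13% NANCI-only lower and 2.07% shared higher overall. The median was 0.72 after NANCI and 0.03 after LL34 shRNA. Mdm2, the ligase that degrades p53, read 12.23, 12.20 and 12.45 with NANCI shRNA against 10.82, 11.07 and 10.87. With LL34 shRNA it read 11.40, 11.42 and 11.48 against 11.56, 11.50 and 11.51. The LL34 response was −0.09, and the difference was 1.46 (SE 0.115, limma adjusted p = 8.66e-06). Plk2, a stress-induced kinase, measured 1.33 and −0.20, and Zmat3, an RNA-binding p53 target, 1.72 and 0.31, with both responses called. Perp and Trp53inp1, which promote cell death, measured 1.04 and −0.32, and 1.44 and −0.31, and were opposite. The member that was lower is Rrm2b, a ribonucleotide reductase subunit chosen after its values were seen (−0.65 and 0.21).

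Of 19 heat shock chaperones, 9 were NANCI-only, against 5.41% NANCI-only higher and 5.13% NANCI-only lower of all named genes. The difference was higher in 12 and lower in 4 (median 0.57), against 12% and 12.3% of all named genes, with a median of 0.52 after NANCI and −0.01 after LL34 shRNA. Hspa1b, the inducible HSP70, read 11.88, 11.63 and 12.07 with NANCI shRNA and 8.66, 9.13 and 9.22 with scrambled. In the LL34 set it read 9.47, 9.11 and 9.37 with shRNA and 9.48, 9.54 and 9.31 with scrambled, and these groups overlapped. The NANCI response was 2.86 and the LL34 response −0.12 (95% confidence interval −0.47 to 0.23), a difference of 2.98 (SE 0.223, limma adjusted p = 6.67e-06). A near-identical neighbour, Hspa1a, can share its signal. The co-chaperone gene Dnajb1 measured 1.08 and −0.07, Hsp90aa1, the inducible HSP90, 0.70 and −0.20, and Hspb1, a small heat shock protein, 1.32 and −0.82. On the other Hspb1 probe set the values were 0.73 and −0.15, and the LL34 response was not called. Hspa9, the mitochondrial HSP70, went against the list with −0.54 and 0.59.

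Other NANCI-only genes with large differences were chosen with an LL34 response under 0.25 in size, so their small LL34 values follow from the choice. Among rises, Lpin1, a phosphatidate phosphatase of lipid synthesis, measured 1.96 against −0.12 (95% confidence interval −0.32 to 0.09), and Slc4a11, a membrane transporter, 2.07 against 0.00 (−0.20 to 0.20). Rgs16, which dampens G protein signals, measured 1.93 against −0.04, Pitpnc1, a phosphatidylinositol transfer protein, 1.85 against −0.11, and Junb, an AP-1 factor, 1.40 against −0.16. Among falls, Sprr1a, a cornified envelope protein, measured −2.67 against 0.04 (−0.28 to 0.37), and Pdia5, an ER disulfide isomerase, −2.30 against 0.16 (−0.06 to 0.38). Ank2, a membrane anchor protein, measured −2.11 against 0.05 (−0.09 to 0.19), Ncam1, an adhesion molecule, −1.94 against 0.09, Rasgef1b −1.77 against 0.12 and Ndnf −2.01 against −0.17. The limma adjusted p of the difference was at most 8.22e-05 for these genes and Hspa1b.

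Alveolar type 1 markers were lower in many cases in both sets. Of 24 measured, the NANCI response was lower in 17 (all named genes 13.6%) and the LL34 response in 12 (10.3%). Medians were −0.75 and −0.29. Of the members, 9 were shared lower (all named genes 3.21%). The difference was lower in 9 and higher in 4, against 12.3% and 12% of all named genes. Col4a3, a basement membrane collagen, read 7.46, 7.34 and 7.58 with NANCI shRNA against 9.56, 9.69 and 9.60. It read 9.19, 9.19 and 9.20 with LL34 shRNA against 9.48, 9.50 and 9.48. Each shRNA group lay below its own control, and the responses of −2.16 and −0.29 differed by −1.87 (SE 0.092, limma adjusted p = 6.3e-07). Col4a4 and the chloride channel gene Clic5 measured −1.71 and −0.17, and −1.88 and −0.16, and Scnn1g, a sodium channel subunit, −1.12 and 0.33. In bulk RNA, fewer cells with a transcript and less of it per cell cannot be told apart.

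Junction genes differed by member. Of 33, the difference was lower in 10 and higher in 4, against 12.3% and 12% of all named genes. The median of −0.16 was −0.0925 without NANCI_shRNA replicate 1, −0.10 after quantile normalization and 0.0299 with all scrambled arrays as 1 control group. Cldn12, a claudin like Cldn1, measured −0.66 and 0.86, and Pard6b, a polarity protein, −1.04 and 0.30. Cdh1, E-cadherin, measured −1.56 and −0.24 (difference −1.33, SE 0.118), with a difference of −0.56 on its dimmer probe set. Krt19, a simple epithelial keratin, was LL34-only at 0.17 and −1.15. Of 35 lung endoderm transcription factors, the difference was called lower in 9 and higher in 4, or 37.1% against 24.4% of all named genes. Foxp2 measured −1.33 and 0.32, Grhl1 −0.34 and 0.72, Id2 1.24 and −0.71, and Etv4, an effector of FGF signals, 1.16 and −0.12. Among 25 alveolar type 2 genes it was lower in 5 and higher in 1, a share near that of all genes. Abca3, the surfactant lipid transporter, measured −1.24 and −0.14, and Sftpb, surfactant protein B, −0.25 and 0.62.

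LL34-only genes were led by falls. Apart from Dusp1, those named here were chosen with a NANCI response under 0.25 in size, so their small NANCI values follow from the choice. Upk3b, a uroplakin of urothelium and mesothelium, read 9.18, 9.39 and 8.93 with LL34 shRNA and 11.59, 11.69 and 11.59 with scrambled. In the NANCI set it read 11.13, 11.08 and 11.04 with shRNA and 11.32, 10.90 and 10.82 with scrambled, and those groups overlapped. The responses were −2.46 for LL34 and 0.07 for NANCI (95% confidence interval −0.22 to 0.37), a difference of 2.53 (SE 0.189, limma adjusted p = 6.54e-06). Fam180a read 7.32, 7.30 and 7.47 with LL34 shRNA against 10.10, 9.93 and 9.86, while the NANCI groups at 8.53, 8.45 and 8.46 and 8.44, 8.43 and 8.18 lay close together. Crip1, a small LIM protein, measured −2.07 against −0.00 (−0.23 to 0.22), Ttyh3, a chloride channel, −1.69 against 0.15 (0.02 to 0.27), Cyp1b1, an oxidase of steroids and xenobiotics, −1.56 against 0.16 and Apol9b −1.52 against 0.22. Dusp1, a MAP kinase phosphatase, measured −1.07 against 0.14.

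Rises called for LL34 shRNA alone were smaller, in genes chosen with the same limit on the NANCI response. Mmp13, a collagenase, measured 1.37 against −0.15 for NANCI (95% confidence interval −0.46 to 0.17). Ciart, a circadian repressor, measured 1.24 against −0.25 (−0.43 to −0.06), where the limma adjusted p of the NANCI response was 0.0618, just outside the threshold. Apmap measured 1.18 against −0.07, Acvr1b, an activin receptor, 1.15 against −0.05, Fetub, a protease inhibitor, 1.22 against −0.21 and Mir3094 1.10 against −0.09. The adjusted p of the difference was at most 0.00874 for these 6 genes and at most 0.00188 for the 6 chosen falls.

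**Figure D4:**
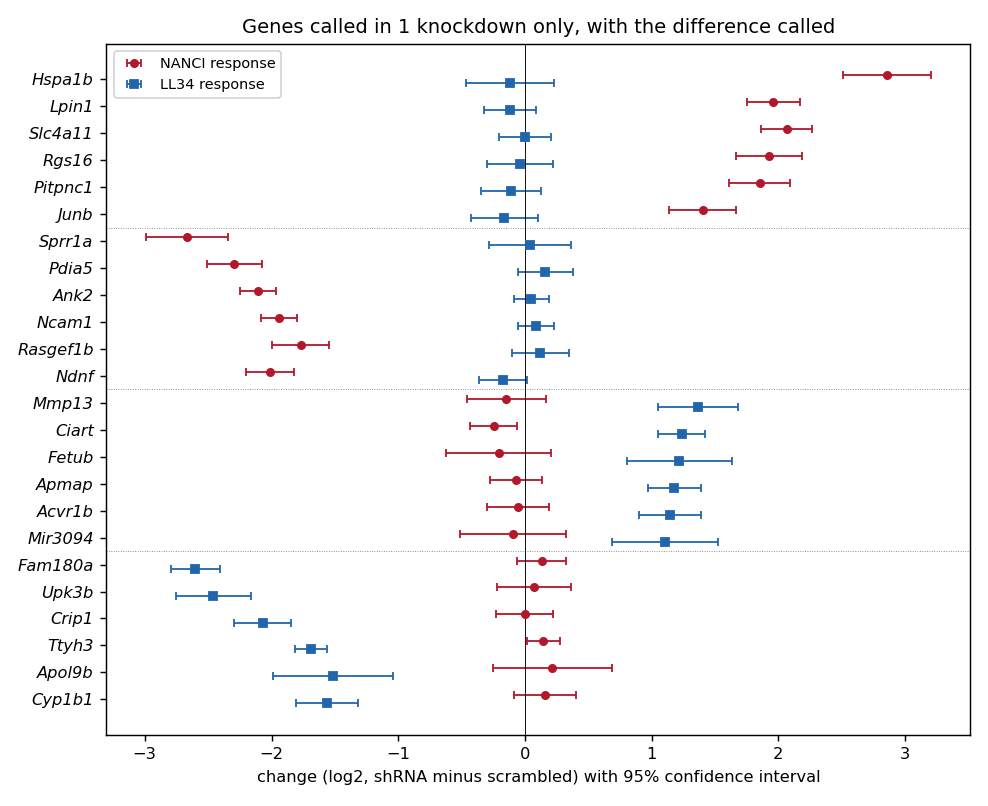
The 6 genes per direction with the largest difference among NANCI-only and LL34-only genes whose other response was under 0.25 in size, placeholder names skipped. Both responses are in log2 units with 95% confidence intervals, and the small responses that were not called follow from the choice. Circles are NANCI and squares are LL34 responses. The intervals of the response that was not called include 0 except for Ciart (−0.43 to −0.06) and Ttyh3 (0.02 to 0.27).

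Shared lower genes had median responses of −0.54 for NANCI and −0.47 for LL34, and shared higher genes 0.40 and 0.36. Prrx1, a mesenchymal homeobox factor, read 7.98, 8.10 and 8.27 with NANCI shRNA against 9.72, 9.58 and 9.75. It read 7.97, 7.89 and 8.07 with LL34 shRNA against 9.46, 9.45 and 9.40. Both shRNA groups lay more than a log2 unit below their controls, at −1.57 and −1.46, and the difference of −0.11 had a 95% confidence interval of −0.36 to 0.15. Edn1, the peptide endothelin 1, measured −1.50 and −1.45 (difference −0.04, −0.39 to 0.30), and Sh3kbp1, an endocytic adaptor, −1.39 and −1.25. Orm1, an acute-phase protein, measured −1.40 and −1.73, Upk1b, another uroplakin, −1.35 and −1.63, and Pkhd1l1 −2.07 and −1.23 with the difference called (−0.84, limma adjusted p = 0.0284). Ildr2 measured −1.29 and −1.27 on its brighter probe set, and −0.03 and −0.12 on the other, where neither response was called.

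Among shared rises, Dicer1, the enzyme that cuts microRNA precursors, read 11.12, 11.12 and 11.32 with NANCI shRNA against 10.35, 10.43 and 10.36. It read 11.22, 11.19 and 11.19 with LL34 shRNA against 10.51, 10.44 and 10.30, so the shRNA groups lay above their controls by a like amount (0.80 and 0.78, difference 0.02, 95% confidence interval −0.20 to 0.24). Uspl1, a SUMO protease, measured 0.98 and 1.05, the zinc finger genes Zbtb39 and Zfp568 1.19 and 0.94, and 0.93 and 0.90, and Mcfd2, a cargo receptor, 0.75 and 0.79. Fam126b measured 0.87 and 0.79 and Mir677 0.87 and 1.11. For these rises the difference was not called.

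Moving the same way did not mean moving equally. The difference was called for 317 of the 1172 shared genes, with the larger response in NANCI for 211 and in LL34 for 106. Thbs1, the matricellular protein thrombospondin 1, measured −0.56 and −2.20 (difference 1.64, SE 0.185), Foxa1, a lung endoderm factor, −0.52 and −1.37, and Ccnd1, cyclin D1, −0.34 and −1.14. In the other direction Tgfbr2, a TGF-beta receptor, measured −1.16 and −0.37. Interferon response genes fell into several classes. Of 32, the NANCI response was lower in 17 (all named genes 13.6%) and the LL34 response in 16 (10.3%). Of the list, 9 were shared lower (all named genes 3.21%). The difference was lower in 11 and higher in 5, against 12.3% and 12% of all named genes. Isg20 was shared lower at −1.03 and −0.25, Ifi27 NANCI-only at −1.14 and −0.06, and the antiviral membrane protein gene Ifitm3 opposite at 0.44 and −0.67.

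Each difference can be written as NANCI shRNA minus LL34 shRNA plus LL34 scrambled minus NANCI scrambled. The sets may have been normalized separately, since NANCI arrays had medians of 6.84 to 6.88 and LL34 arrays medians of 6.54 to 6.61. On the deposited values the LL34 scrambled group differed from the NANCI scrambled group for 60.4% of named genes, being higher for 9.9% and lower for 50.5%. These parts are therefore given after quantile normalization over the 12 arrays, relative to the median of all named genes. A gene's own offset between the sets cancels in the difference but not in either part, also after that normalization. Such an offset cannot be told apart from the 2 parts. For ATF4 targets the scrambled part had a median of −0.69 and the shRNA part −0.43, for NRF2 targets 0.50 and 0.29, and for cholesterol genes 0.52 and 0.09. For mitotic genes the parts were 0.38 and −0.03 and for glycolysis genes 0.32 and −0.03. For heat shock genes the order was the reverse, with 0.06 and 0.36, and for p53 targets the parts were 0.28 and 0.35. Over the classes, the scrambled part was the larger for 28.4% of opposite genes with NANCI lower and for 26.9% of those with NANCI higher, and for 30.8% and 23.6% of NANCI-only genes higher and lower. It was the larger for 39.6% and 41.8% of LL34-only genes, for 45.1% and 42.4% of shared genes, and for 42.8% of all named genes.

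**Figure D5:**
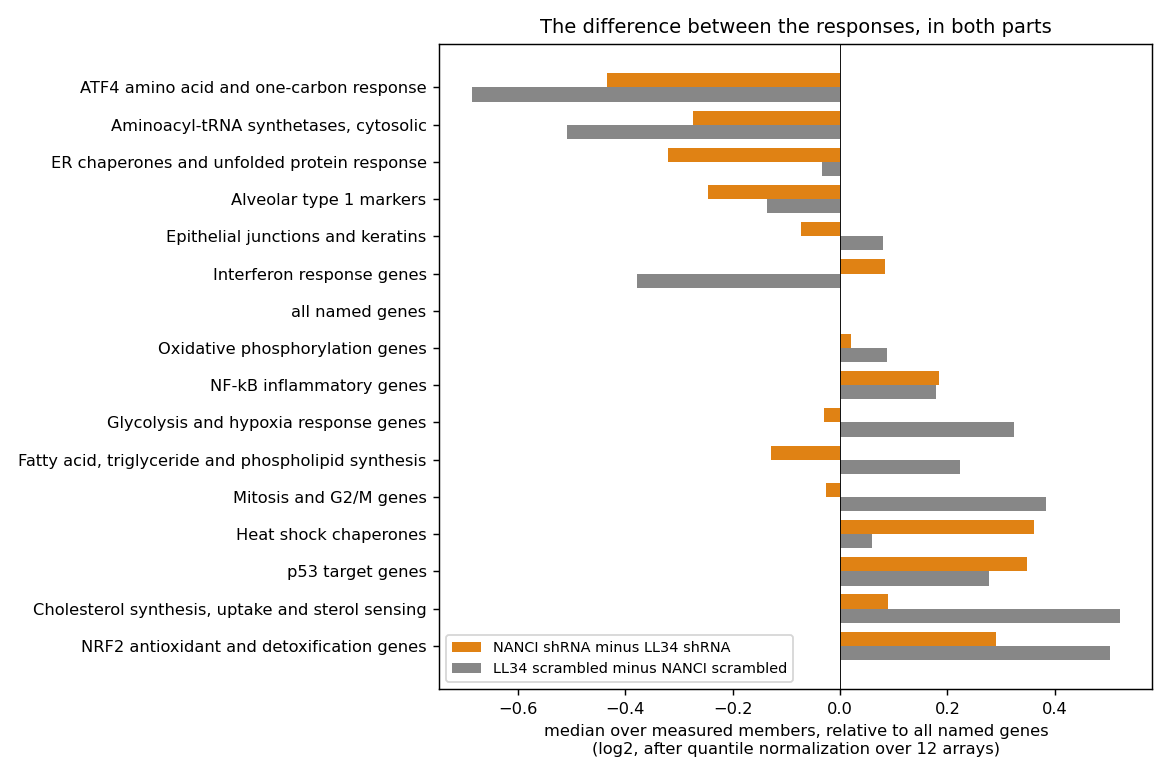
Medians of both parts of the difference over 15 gene lists, in log2 units after quantile normalization over 12 arrays and relative to all named genes; orange bars are NANCI shRNA minus LL34 shRNA, grey bars LL34 scrambled minus NANCI scrambled. Grey bars exceed orange ones for ATF4, NRF2, cholesterol and mitotic genes, and orange bars exceed grey ones for heat shock and ER genes.

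By this split, which cannot separate an offset between the sets, single genes ranged from almost wholly 1 part to almost wholly the other. Their parts are given after the same normalization but not relative to all named genes. The medians of all named genes were −0.02 for the scrambled part and 0.07 for the shRNA part. Nqo1 had a scrambled part of 2.22 and an shRNA part of 0.47, Hmgcs1 1.72 and 0.18, Trib3 −2.11 and −0.60, and Ciart −1.25 and −0.15. Acvr1b had −1.04 and −0.03, Slc2a1 1.00 and 0.07, Fgfr2 1.28 and 0.19, Gclm 1.15 and 0.20, and Sftpb −0.60 and −0.23. The shRNA part was not called for Hmgcs1 (limma adjusted p = 0.126), Ciart (0.0904), Acvr1b (0.788), Slc2a1 (0.307), Fgfr2 (0.201), Gclm (0.0604) and Sftpb (0.0973). Tc2n had −0.23 and −3.07, Hmox1 −0.31 and 2.27, Ccl2 0.30 and 2.35, Zmat3 0.02 and 1.47, and Krt19 −0.04 and 1.34. B4galnt2 had −3.20 and −2.74, both large. With all 6 scrambled arrays as 1 control group after that normalization, an alternative added after the data were seen, 11 ATF4 targets of 35 were lower and 5 higher, and opposite genes numbered 261 and 366 in place of 644 and 581. There 4896 of 22180 named genes were called higher in place of 2671, so a larger share of all genes was higher. The share of all named genes called lower in this fit is not given. The lower counts of the lists therefore cannot be read against it. Synthetases then numbered 5 higher and 5 lower of 17, mitotic genes 6 and 7 of 30, and glycolysis genes 6 and 5 of 27. Cholesterol genes numbered 3 and 0 of 21, and interferon genes 9 and 2 of 32. NRF2 targets numbered 11 and 1 of 28, and NF-kB genes 12 and 3 of 27. For p53 targets the counts were 12 and 1 of 24, and for heat shock genes 11 and 5 of 19. Of 161 named results 27 lost the call, among them Trib3, Chac1, Pck2, Nqo1, Gclm, Txnrd1, Pgd, Hmgcs1, Cyp51, Sqle, Bub1b and Aurkb. The Sprr1a, Fam180a, Scnn1g, Id2 and Nkx2-1 differences were also lost. In this fit the difference equals the shRNA part above, so it is no separate check. Its spread also takes in the gap between the scrambled groups. With 4 groups that part was called for Trib3 (limma adjusted p = 4.75e-05), Chac1 (1.2e-05) and Pck2 (5.35e-06), but not for Hmgcs1 or Gclm. Why the scrambled groups differed was not tested.

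Gene length, which the calls did not use, varied between the classes. Its median was 41.9 kb for shared lower genes, 32.3 kb for NANCI-only lower genes and 27.1 kb for opposite genes with NANCI lower, against 16.3 kb for all named genes. It was 18.5 kb for shared higher and 20.1 kb for opposite genes with NANCI higher. For NANCI-only higher genes it was 19.2 kb, and for LL34-only genes 21.3 kb higher and 25.0 kb lower. Every called class was thus above all named genes, which also differed from the classes in signal and coding share. All 8 classes of called genes were alike in signal, with class medians of 9.19 to 9.83 against 7.11 over all named genes, and in the share of protein-coding genes, at 94.1% to 98.0% against 86.2%.

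Few markers of other cell types had a called difference. It was called for 0 of 12 endothelial markers, 1 of 13 leukocyte markers (Cd68, higher) and 1 of 14 mesenchymal markers (Dcn, lower), against 24.4% of all named genes. At an unadjusted p under 0.05 in limma the endothelial count was also 0. Genes in no class had a median signal of 6.38, below the 9.19 to 9.83 of the called classes. Whether dim signal lowered the marker counts was not tested. Epithelial markers of the line ranged over the 12 arrays from 10.04 to 11.18 for Nkx2-1, from 9.46 to 11.27 for Cdh1, from 10.35 to 11.48 for Krt8 and from 9.07 to 10.84 for Sftpc. Epcam read 6.12 to 6.80, Krt18 6.36 to 6.96 and the surfactant protein gene Sftpa1 5.86 to 6.50, near or below the array medians, as did Pecam1 (6.22 to 6.81). Ptprc read 4.97 to 5.55, below every array median (6.54 to 6.88). The deposited values hold no detection call, so absence of a transcript could not be read from them.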

How the data were processed

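RNA from MLE12 cells was measured on 12 Affymetrix gene arrays of the 1-colour type. The authors deposited log2 signals per probe set, and per the submitters' processing notes oligo, RMA and limma were used, in versions that the labels leave out. The scale was checked on the values. Of 41345 probe sets, 23521 carried 1 gene symbol, 1814 several and 16010 none; several and none were tested but not named. Symbols were updated through the Entrez number, and the probe set with the highest mean over all arrays stood for a gene (22180 genes, 1082 with more than 1 probe set).

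limma 3.58.1 (R 4.3.3) was fitted to the deposited values with 4 group means (8 residual and 2.84 prior degrees of freedom), adjusted over all probe sets, and tested on simulated data with known differences. Array number limits the precision. Among LL34 arrays as many as 1681 probe sets agreed exactly on 2 arrays (27 in the NANCI set), and 464 and 212 held 1 value on all 3 arrays of the shRNA and scrambled group (0 and 1 in the NANCI set), so SEs there may be too small.

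Genes were named by a rule. Opposite genes were the 10 per direction with the largest smaller response and no overlap of arrays. For NANCI-only and LL34-only genes they were the 6 per direction with the largest difference whose other response was under 0.25 in size. Shared genes were the 8 per direction with the largest smaller response, and each list gave up to 5 members by p. Placeholder names were skipped, and Sfta3-ps and Nkx2-1 were added. A shared lower gene that the rule chose is not reported here. Genes named beyond the rule, as list examples or unequal shared genes, were chosen after their values were seen. The classes, members and 31 gene lists (730 of 797 entries matched) were chosen with earlier results of these data known. Alternatives covered normalization, controls, weights, blocks, filters, thresholds and leaving out each array. Promoters were read from RefSeq, GRCm38.p6.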

Additional observations from a re-analysis of the deposited data

Results flagged for a closer look

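The opposite genes chosen by the naming rule had the NANCI shRNA arrays on 1 side of their scrambled arrays and the LL34 shRNA arrays on the other side of theirs, on every array, with the difference called in limma. With the lower NANCI response, the differences were −6.01 for B4galnt2, −4.82 for Cox6a2, −4.61 for Aldh1l2, −4.18 for Cldn1 and −4.07 for Slc7a11. They were −3.99 for Vldlr, −3.63 for Nupr1, −3.39 for Myct1, −3.28 for Tc2n and −2.89 for Pck2. With the higher NANCI response, they were 3.46 for Mrgprb3, 3.33 for Cbr3, 2.82 for Plau, 2.73 for E2f5 and 2.69 for Ctxn1. They were 2.62 for Ccl2, 2.28 for Osgin1, 2.22 for Olr1, 2.18 for Gsta4 and 2.08 for Fah. The absence of overlap was part of the rule that chose these genes and adds no support. Over all named genes, 2510 (11.3%) had both responses on opposite sides on every array, and 2493 (11.2%) on the same side.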

How the results depend on the processing

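Apart from Atf3, all of the 161 named gene results kept their direction and call with quantile normalization, centring, array weights, a trended prior, either block, gene means and each array left out, and those that could be run kept them without dim or tied probe sets. With all 6 scrambled arrays as 1 control group, the difference was NANCI shRNA minus LL34 shRNA. In that fit 8474 genes were called higher, opposite genes numbered 158 and 323, and shared genes 215 higher and 457 lower. There Acvr1b measured 0.0029 and the junction list 0.0299, both reversed, and the median of all genes moved from 0.03 to 0.27. With that control after quantile normalization, 4896 genes were called higher, opposite genes numbered 261 and 366, shared higher genes 259, and the fatty acid list was reversed at −0.0586. At an adjusted p under 0.01 the opposite classes held 331 and 314 genes and the shared ones 191 and 443. With a size of at least 0.5 they held 128 and 108, and 38 and 198, and LL34-only genes numbered 799. The count of shared higher genes was 299 to 453 with 1 array left out. Some other classes shrank too. Opposite genes with NANCI lower numbered 451 without LL34_shRNA replicate 1 and 432 with a replicate block within each set. LL34-only higher genes numbered 424 without LL34_shRNA replicate 3. Replicate numbers did not pair the arrays (correlations of deviations −0.125 to 0.045 within sets), and a replicate block within each set left 270 shared higher genes and ended the Atf3 call (adjusted p = 0.0657). The causes were not tested.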

Other observations

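Genes of other fixed lists also had called differences. Of 21 FGF and ERK feedback genes the difference was higher in 9 and lower in 1, against 12% and 12.3% of all named genes. Fgfr2, an FGF receptor, measured 0.54 and −0.88, Hbegf, an EGF receptor ligand, 0.84 and −0.38, and Dusp4, an ERK phosphatase, 0.73 and −0.26. Of 32 oxidative phosphorylation genes it was higher in 10 and lower in 4, with the complex III gene Uqcrfs1 at 0.96 and −0.09. Of 25 fatty acid and lipid synthesis genes it was higher in 12 and lower in 6. Fasn, fatty acid synthase, measured 0.33 and −0.91, and Plin2, a lipid droplet protein, 1.30 and 0.04. Of 22 immediate early genes it was higher in 10 and lower in 3, of 29 TGF-beta and matricellular genes higher in 4 and lower in 9, of 22 Wnt genes higher in 4 and lower in 6, and of 28 ribosomal protein genes higher in 6 and lower in 5.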
